A study of Mus musculus with 10 samples.

Results

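The F1 males of a reciprocal cross of 2 strains, C57BL/6NCrl (B6N) and the obese Berlin Fat Mouse (BFMI, here the inbred subline BFMI860-12/Hber), were set against the mid-parent, the log-scale mean of their inbred parental strains, gene by gene in liver RNA. The members were the autosomal genes that reached 10 counts in 2 or more libraries, 18968 of the 41388 genes in the deposited table. The 6 F1 males comprised 3 sons of BFMI dams and B6N sires (matBFMI) and 3 sons of B6N dams and BFMI sires (patBFMI), and the inbred animals were 1 male and 1 female of each strain, all aged 10 weeks. BFMI carries a recessive obesity mutation, and the F1 mice are heterozygous for it. The F1 animals received a high fat diet between weaning at 21 days and dissection at 70 days. The sources differ on the inbred animals: the sample records put parental animals on a standard breeding diet, whereas the study's methods describe the inbred controls as raised on the high fat diet. If the diets differed, diet and hybrid state cannot be told apart here. F1 and inbred libraries were also run on different lanes, so lane and hybrid state cannot be told apart either. The matBFMI libraries shared a lane, the patBFMI libraries another, and the BFMI male was the only library on its lane, so lane and cross, and lane and that animal, cannot be told apart.

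A gene whose expression is additive lies at the mid-parent in an F1. Where the F1 resembles a single parent, expression is called dominant, and where it lies outside both parents it is called transgressive. Allele-specific differences that act in cis give an F1 level at the arithmetic mean of the parents if each allele keeps its own output, whereas the mid-parent on a log scale is their geometric mean. The liver makes cholesterol, fatty acids, urea and most plasma proteins, and many of these genes follow feeding and time of day.

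The libraries held between 46988713 and 96023811 assigned reads, with the BFMI male deepest. A count was recorded for 22095 to 32421 genes in F1 libraries and for 29942 to 34572 in inbred libraries. The share of reads in autosomal genes that are not protein coding was 11.8 to 13.3% in F1 and 13.9 to 16.2% in inbred libraries, and the mitochondrial share was 3.84 to 5.18% in F1 and 5.13 to 6.60% in inbred libraries. Since all F1 animals were males, the fit held a sex term, and the mid-parent therefore stands at the level of the inbred males. Hepatocyte markers summed to 94454 to 104467 CPM (counts scaled to the effective library size) in F1 and 91109 to 117092 CPM in inbred livers. In bulk liver, fewer cells of a type and less RNA per cell cannot be told apart.

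Against the mid-parent, 405 genes were called (2.14% of those tested), where a call is by edgeR unless another tool is named. Of these, 228 were higher in F1 (1.2%) and 177 were lower (0.933%) at an adjusted p of 0.05. The median log2 fold change was 0.75 among the genes called higher and -1.02 among those called lower, and the change reached at least 2-fold in 65 and 93 of them. Of the 228 higher genes, 72 had all 6 F1 libraries above all 4 inbred libraries in CPM, an arrangement found for 3.22% of all genes tested. The opposite arrangement held for 92 of the 177 lower genes and for 2.64% of all genes. At an unadjusted p under 0.05, 1740 genes were higher (9.17%) and 1423 lower (7.5%). The deposited RPKM values with a pseudocount of 1 gave another split, 54 higher and 199 lower, and moved the median of all genes to -0.27 on the log2 scale, against 0.01 in counts. Changes on that scale are therefore relative to a lower centre.

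The calls rested mainly on the inbred males. Without the BFMI male, 6 genes were called higher and 7 lower, of which 4 and 3 were among the genes above, and without the B6N male 74 and 103 were called. By construction, leaving out an inbred male makes the male level of its strain depend on the sex difference in the other strain. Without the sex term, where the mid-parent is the plain mean of the 4 inbred libraries, 477 genes were called higher and 455 lower, and 143 and 144 of them were shared with the fit that holds it. When the BFMI male was also left out of that fit, 81 were higher and 108 lower.

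The departures were not even along the range of expression. Among the 870 genes that averaged under 0.1 CPM over the libraries, the median log2 fold change was -1.84, and 0 were called by edgeR, with 128 at an unadjusted p under 0.05. It was -0.29 for the 5530 genes of 0.1 to 1 CPM, 0.02 for the 5614 of 1 to 10 CPM, 0.08 for the 5865 of 10 to 100 CPM and 0.13 for the 1089 of 100 CPM or more. At under 0.1 CPM a gene passed the filter only through the libraries where its counts were highest. Genes with at least 10 counts numbered 15905 to 18062 in F1 and 17128 to 20251 in inbred libraries, so the filter can lower this median. The inbred libraries also recorded more genes in all, as given above. The part of the filter, depth and library composition in the low range was not tested. Genes called higher were mostly of 10 CPM or more (126 and 52 in the upper classes), while 104 of the genes called lower lay between 1 and 10 CPM and 26 between 0.1 and 1 CPM.

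**Figure D1:**
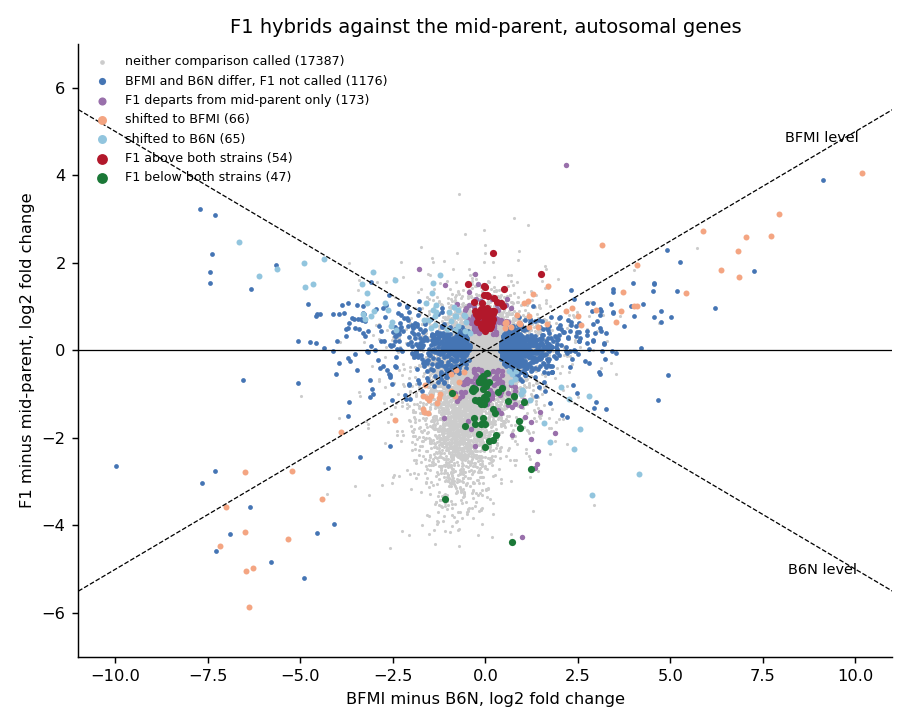
Each point is an autosomal gene, with BFMI minus B6N on the x axis and F1 minus mid-parent on the y axis, both as log2 fold changes; the dashed lines mark the BFMI and the B6N level and colours give the class of each gene. The 54 genes above both strains lie over the horizontal line and the 47 below both under it. Of these, 4 were also called between BFMI and B6N. The 1176 strain genes without a called shift spread along that line, as their class requires.

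BFMI and B6N differed at 1311 genes (6.91%), 714 higher (3.76%) and 597 lower (3.15%) in BFMI. These strain genes are the ones where an F1 position between the parents can be read. On a scale with B6N at 0 and BFMI at 1, the median F1 position was 0.492 with quartiles of 0.281 and 0.730. The position lay between 0.25 and 0.75 for 715 genes (54.5%), beyond the B6N level for 104 and beyond the BFMI level for 115. No departure from the mid-parent was called for 1176 of the 1311 genes (89.7%, and 6.2% of all genes tested). A missing call does not show additivity: the median standard error of F1 minus mid-parent among them was 0.14 on the log2 scale, and 706 of the 1176 lay between 0.25 and 0.75.

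From this class, the genes named were chosen to have separate strains and every F1 library between them. Among such genes they had the largest strain differences. Cyp2c39, a cytochrome P450 of the Cyp2c family, had 22.1, 41.4 and 81.4 CPM in F1 (lowest, median and highest), against 224 CPM in the BFMI male, 465 in the BFMI female, 1.79 in the B6N male and 10.1 in the B6N female. BFMI was higher by 6.19 ± 0.40 on the log2 scale (SE, adjusted p = 1.1e-05). Corin, a protease that activates atrial natriuretic peptide, had 3.92, 6.30 and 8.15 CPM in F1, against 22.4 and 18.2 CPM in BFMI and 0.425 and 0.834 CPM in B6N, with the male before the female of each strain here and in what follows. In both genes the 3 matBFMI livers were higher than the 3 patBFMI livers, with adjusted p of 0.188 for Cyp2c39 and 0.234 for Corin between the crosses. A4gnt and Vtcn1 were the other genes of this rule that were higher in BFMI, by 7.27 and 4.76 on the log2 scale.

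Fabp5, a fatty acid binding protein, ran the other way. It had 20.6, 38.3 and 55.3 CPM in F1, against 2.56 and 10.6 CPM in BFMI and 138 and 116 CPM in B6N (BFMI minus B6N -4.57 ± 0.55, SE, adjusted p = 0.000732). Dhrs9, a retinol dehydrogenase, and Acpp, a prostatic acid phosphatase, were lower in BFMI by -4.57 and -4.75 on the log2 scale. Skint3 was not counted in either BFMI liver and had 0.0189 to 0.157 CPM in F1 and 0.314 and 0.488 CPM in B6N. Against a floor of 3 counts over the BFMI group it was at least 19.7-fold lower in BFMI than in B6N.

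A departure from the mid-parent toward 1 strain, without a call outside both strains, was found for 66 genes shifted to BFMI (0.348% of the genes tested) and 65 shifted to B6N (0.343%). Their median positions on the log scale were 1.14 and -0.16, so that most of each class lay beyond the level of the strain it was shifted to. Of these 131 genes, 84 were shifted toward the strain with the higher level and 47 toward the lower. Since the geometric mean lies under the arithmetic mean, the positions were also taken in CPM, between the inbred males. Of the 84 genes shifted upward, 31 lay between 0.25 and 0.75 of the way in CPM and 53 at 0.75 or more. All 47 genes shifted downward lay under 0.25. They included the pancreatic enzyme genes Cel, Ctrb1, Amy2a4, Pnliprp1 and Amy2a1, which were near 0 in F1 and BFMI and count as shifted to BFMI. For those 31 genes a shift on the log scale stood beside an F1 level nearer to the arithmetic midpoint.

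Log and CPM positions differed most where the strains were far apart. Over all strain genes, the median position toward the higher strain was 0.592 on the log scale and 0.467 in CPM. For strain differences under 2-fold, medians were 0.598 and 0.531 (617 genes), and for differences over 16-fold they were 0.687 and 0.291 (81 genes). The log scale thus placed the F1 nearer to the higher strain and the CPM scale nearer to the lower strain in that last class. The log positions came from the fit over all 10 libraries with its sex term, whereas the CPM positions left out the inbred females. They thus differ in more than scale, and neither was tested as the better one.

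**Figure D2:**
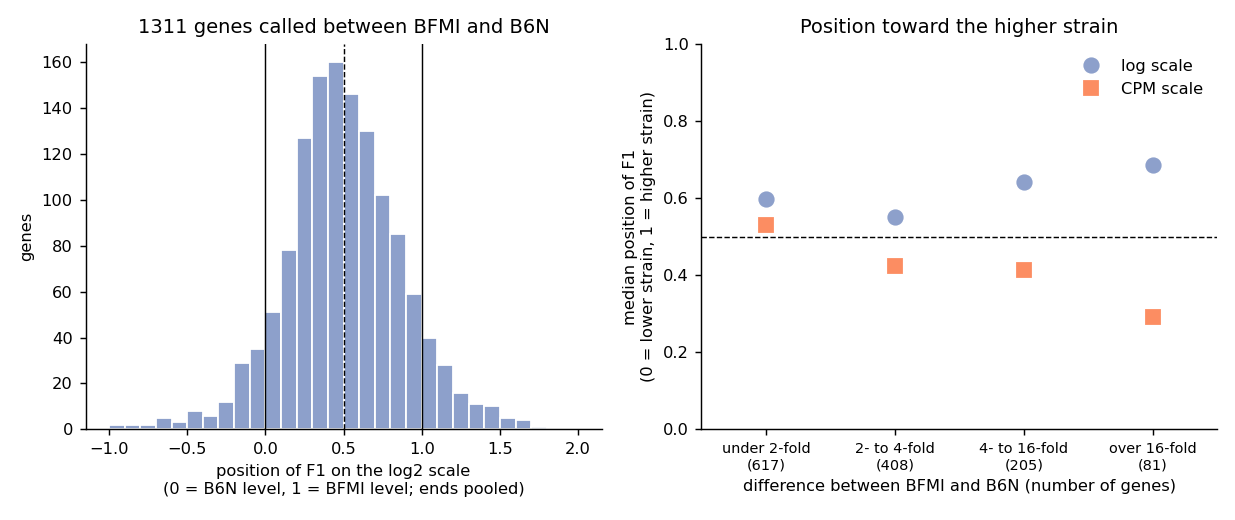
The left panel shows how many of the 1311 strain genes fall at each F1 position on the log2 scale, with 0 at B6N, 1 at BFMI and the mid-parent dashed. The right panel gives the median position toward the higher strain by the size of the strain difference. Circles are on the log scale and squares in CPM between the inbred males, with medians of 0.687 and 0.291 over 16-fold.

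Of the genes shifted to BFMI, the 6 with the smallest adjusted p between the strains were Serpina3c, Ctse, Vmn2r20, Asic5, Iqcg and Hddc3. Serpina3c, a serine protease inhibitor of a clustered mouse family, had 103, 118 and 133 CPM in F1, against 201 and 179 CPM in BFMI and 0.998 and 0.569 CPM in B6N. All F1 livers lay between the strains, at a position of 0.89 on the log scale and 0.59 in CPM, and the departure from the mid-parent was 3.11 ± 0.17 (SE, adjusted p = 8.75e-05). Ctse, the aspartic protease cathepsin E, had 12.2, 15.5 and 22.7 CPM in F1, against 55.1 and 44.6 CPM in BFMI and 0.407 and 0.447 CPM in B6N. Its positions were 0.75 on the log scale and 0.29 in CPM, on opposite sides of the midpoint. Vmn2r20, Asic5, Iqcg and Hddc3 had log positions of 0.87, 0.75, 0.68 and 0.75 and CPM positions of 0.51, 0.44, 0.39 and 0.47. Serpina3c belongs to a family of near-identical copies, and Vmn2r20 to the vomeronasal receptors, so counts of both may be split between relatives.

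Among the genes shifted to B6N with the smallest adjusted p were Rpl21, Rpl34, Iah1, Cebpe and Camk2b. Rpl21, a protein of the large ribosomal subunit, had 14.9, 15.5 and 16.3 CPM in F1, against 2.90 and 3.71 CPM in BFMI and 28.2 and 28.0 CPM in B6N. The 6 F1 values were close together and lay at 0.25 on the log scale and at 0.50 in CPM, the arithmetic midpoint. Rpl34 and Rps18 showed the same arrangement: Rpl34 had 10.5 to 11.3 CPM in F1, against 1.97 and 2.23 CPM in BFMI and 21.9 and 18.3 CPM in B6N. Rps18 had 23.9 to 28.8 CPM in F1, against 6.58 and 8.97 CPM in BFMI and 45.7 and 44.0 CPM in B6N. Ribosomal protein genes share reads with many processed pseudogenes, so these levels are uncertain. Iah1, Cebpe and Camk2b lay at 0.48, 0.45 and 0.49 in CPM. These genes thus lay near the arithmetic midpoint between the inbred males. Cebpe had 1.62 to 2.34 CPM in F1, against 3.40 and 1.81 CPM in B6N, so the B6N female lay within the F1 range. Between the strain means in CPM, Iah1 lay at 0.60. Cebpe then lay nearer to B6N, with a mean of 1.87 CPM in F1, 0.0245 CPM in BFMI and 2.61 CPM in B6N. The departures of Iqcg, Hddc3, Rpl34 and Camk2b were below 0 in the RPKM values at either pseudocount, but above the median of all genes there, which was -0.27 at a pseudocount of 1 and -0.66 at 0.1.

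Outside the range of both strains, 54 genes were above both (0.285%) and 47 below both (0.248%), as judged by F1 minus BFMI and F1 minus B6N each at an adjusted p of 0.05. F1 differed from BFMI at 828 genes (4.37%), of which 427 were higher (2.25%) and 401 lower (2.11%), and from B6N at 634 (3.34%), of which 357 were higher (1.88%) and 277 lower (1.46%). All F1 libraries were above all inbred libraries at 32 of the 54, and below them at 37 of the 47. These classes held 2 and 5 genes without the BFMI male.

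Sucnr1, the receptor for succinate, had 48.0, 56.4 and 68.1 CPM in F1, against 23.8 and 25.6 CPM in BFMI and 29.7 and 22.8 CPM in B6N. The groups did not overlap in either sex, and F1 exceeded the mid-parent by 1.08 ± 0.13 on the log2 scale (SE, adjusted p = 0.00565). This call was lost in 1 of 28 alternatives. The next 2 genes departed from the mid-parent but were not called against both strains. Zbtb45, a zinc finger protein, had 3.90, 5.74 and 8.56 CPM in F1, against 1.98 and 1.96 CPM in BFMI and 2.18 and 2.40 CPM in B6N, a departure of 1.52 ± 0.31 (adjusted p = 0.0368). Hes6, a basic helix-loop-helix factor of the Hes family, had 48.3 to 88.0 CPM in F1, against 26.1 and 32.1 CPM in BFMI and 42.5 and 36.2 CPM in B6N (1.03 ± 0.19, adjusted p = 0.025). Above both strains, Epop, Colgalt2 and Exoc3l2 exceeded the mid-parent by 1.44, 1.40 and 0.91 on the log2 scale, and all 3 were below 0 in the RPKM values at either pseudocount but above the median of all genes on those scales (-0.27 and -0.66). Fdps and Msmo1, also above both strains, belong to the cholesterol pathway.

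Cholesterol is made from acetyl-CoA through mevalonate, squalene and lanosterol. When sterols in the membrane of the endoplasmic reticulum are low, the transcription factor SREBP2 is released by cleavage and raises the genes of the pathway. SREBP2 binds sterol regulatory elements and acts with the factor NF-Y, which binds CCAAT boxes. Of 23 tested genes of cholesterol synthesis and SREBP2 targets, 12 were called higher in F1, 0 lower, and all 23 log2 fold changes were positive, with a median of 0.78 against 0.01 over all autosomal genes. Of these, 22 were above the median of genes of like expression, and 7 were above both strains. DESeq2 called 18 of them higher. In edgeR 1 was called without the BFMI male, with 17 at an unadjusted p under 0.05 and a list median of 0.82. Without the B6N male 0 were called by edgeR, with 15 at an unadjusted p under 0.05 and a median of 0.71. With matBFMI alone as F1 15 were called (median 1.02), and with patBFMI alone 1 (median 0.64); the difference between the crosses was not tested for the list.

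Fdps, farnesyl diphosphate synthase, had 150.2, 195 and 286 CPM in F1, against 84.9 and 115 CPM in BFMI and 86.3 and 103 CPM in B6N (1.25 ± 0.20, adjusted p = 0.0175). Msmo1, the methylsterol monooxygenase that demethylates lanosterol products, had 190.1, 243 and 306 CPM in F1, against 148 and 165 CPM in BFMI and 96.3 and 132 CPM in B6N (1.02 ± 0.13, adjusted p = 0.0078). In both genes every F1 liver was above every inbred liver. Lss, lanosterol synthase, had 84.5 to 172 CPM in F1, against 62.5 and 96.1 CPM in BFMI and 46.8 and 70.6 CPM in B6N (1.08 ± 0.18, adjusted p = 0.0176). Here the BFMI female overlapped the F1 range. Hmgcs1, the synthase at the entry to the pathway, was not called: it had 466 to 901 CPM in F1, against 669.7 and 724 CPM in BFMI and 247 and 374 CPM in B6N (0.66 ± 0.19, adjusted p = 0.117), and it differed between the strains (1.20 ± 0.23, adjusted p = 0.0102).

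Promoters of 3 of these genes are printed because they hold the letters that SREBP2 or NF-Y is known to bind. They come from RefSeq (GRCm38.p6), run from 250 bases before to 50 after the annotated start, and show matches in capitals. The motifs were the sterol regulatory element TCACNCCAC and the NF-Y box CCAAT, each searched on both strands, so that ATTGG is CCAAT on the other strand. The motifs did not overlap in the windows printed.
Msmo1, chr8:64733529-64733828, minus strand: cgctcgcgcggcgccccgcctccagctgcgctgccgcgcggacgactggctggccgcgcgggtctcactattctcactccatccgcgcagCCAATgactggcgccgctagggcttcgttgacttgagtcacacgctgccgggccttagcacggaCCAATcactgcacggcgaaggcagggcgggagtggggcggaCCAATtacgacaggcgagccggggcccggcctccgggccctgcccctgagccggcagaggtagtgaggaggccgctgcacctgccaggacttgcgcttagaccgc
Lss, chr10:76531355-76531654, plus strand: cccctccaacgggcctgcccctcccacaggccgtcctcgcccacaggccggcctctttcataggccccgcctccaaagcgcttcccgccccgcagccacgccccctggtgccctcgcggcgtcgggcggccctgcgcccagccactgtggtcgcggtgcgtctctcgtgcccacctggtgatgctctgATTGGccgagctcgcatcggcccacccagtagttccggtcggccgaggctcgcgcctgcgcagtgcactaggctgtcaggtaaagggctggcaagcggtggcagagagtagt
Hmgcs1, chr13:119690101-119690400, plus strand: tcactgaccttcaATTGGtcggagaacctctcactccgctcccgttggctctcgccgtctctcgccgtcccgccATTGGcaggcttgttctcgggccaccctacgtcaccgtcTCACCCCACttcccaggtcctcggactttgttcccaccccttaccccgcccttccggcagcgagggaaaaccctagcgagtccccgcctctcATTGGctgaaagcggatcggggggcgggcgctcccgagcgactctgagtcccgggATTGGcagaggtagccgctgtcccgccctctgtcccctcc

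Of the 23 tested genes, 15 matched the promoter table, and Fdps was among those that did not. CCAAT stood in at least 1 promoter of 14 of the 15 genes (93.3%), against 41.1% of all genes and 37.4% of all promoters of this length. It stood in 15 of 20 fatty acid synthesis genes and 14 of 19 clock genes as well. Msmo1 held 3 copies, Lss 1 and Hmgcs1 4. The sterol regulatory element stood in the Hmgcs1 promoter alone, against 1.24% of all promoters. A match is a description of letters and not of binding, and the element may also stand outside these windows or in other letters.

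Fatty acid synthesis follows insulin and carbohydrate intake through SREBP1c and ChREBP. Of 23 tested genes of this list, 7 were called higher in F1, 0 lower, and 21 lay above the mid-parent, with a median of 0.58. DESeq2 called 11 higher. Without the BFMI male, without the B6N male and with patBFMI alone as F1, 0 were called by edgeR, with 11, 9 and 9 at an unadjusted p under 0.05 and list medians of 0.70, 0.56 and 0.32. With matBFMI alone 10 were called.

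Thrsp, a regulator of lipogenesis, had 220.4, 620.3 and 958 CPM in F1, against 147 and 302 CPM in BFMI and 161 and 416 CPM in B6N (1.75 ± 0.33, SE, adjusted p = 0.0285). Acss2, which makes acetyl-CoA from acetate, had 388, 532 and 851 CPM in F1, against 169.9 and 488 CPM in BFMI and 227 and 381 CPM in B6N (1.48 ± 0.26, adjusted p = 0.0219). In both genes all F1 livers were above the inbred males, while at least 1 inbred female lay within the F1 range. Acacb, the acetyl-CoA carboxylase of the mitochondrial membrane, and Dgat2, which makes triglycerides, exceeded the mid-parent by 1.34 and 0.61 (adjusted p = 0.0243 and 0.024), with the same overlap of inbred females. Without the sex term, only 1 gene of the list was called.

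**Figure D3:**
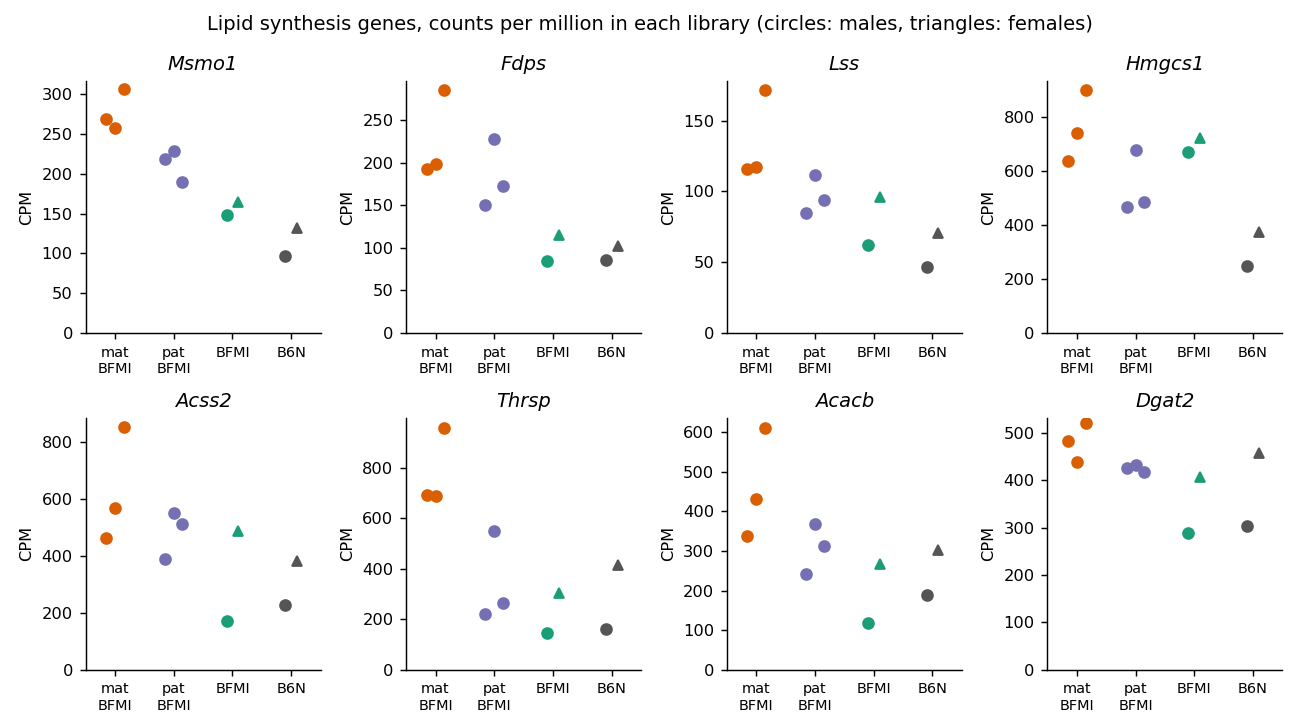
CPM of 8 genes of cholesterol and fatty acid synthesis in each library, by group, with males as circles and females as triangles. For Msmo1 and Fdps every F1 liver lies above every inbred liver, with 190.1 to 306 CPM in F1 against at most 165 CPM for Msmo1 and 150.2 to 286 CPM against at most 115 CPM for Fdps.

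Genes of fatty acid oxidation under PPAR alpha, the receptor that responds to fatty acids in fasting, mostly had negative fold changes. Of 34 tested, 0 were called higher and 2 lower, 28 had a negative fold change, and the median was -0.18. Fgf21, a hormone released by the liver in fasting, had 1.77, 3.40 and 7.39 CPM in F1, against 13.5 and 5.42 CPM in BFMI and 8.91 and 2.26 CPM in B6N (-1.61 ± 0.23, adjusted p = 0.013). The F1 livers were below both inbred males, and the inbred females lay within their range. Vnn1, the pantetheinase vanin 1, had 6.89, 12.6 and 19.9 CPM in F1, against 14.4 and 22.3 CPM in BFMI and 68.4 and 47.8 CPM in B6N (-1.33 ± 0.24, adjusted p = 0.0243), so that F1 overlapped BFMI and not B6N.

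Among 19 tested genes of lipid droplets and steatosis, Cd36 was called lower and 0 were called higher, with a median of -0.50, and DESeq2 called 6 lower. Cd36, a fatty acid transporter, had 28.9, 44.0 and 74.1 CPM in F1, against 228 and 218 CPM in BFMI and 44.0 and 50.2 CPM in B6N. The F1 livers thus overlapped B6N and lay far under BFMI, and the departure was -1.11 ± 0.22 (adjusted p = 0.0325). Lpl, lipoprotein lipase, had 7.05 to 16.9 CPM in F1, against 16.4 and 11.4 CPM in BFMI and 25.6 and 11.3 CPM in B6N, and missed the threshold (adjusted p = 0.0529). In the bile acid list of 21 genes, Abcb4, which exports phospholipid into bile, was the only gene called by edgeR, while DESeq2 called 2 higher and 1 lower. Abcb4 had 261, 311 and 349 CPM in F1, against 601 and 403 CPM in BFMI and 326 and 278 CPM in B6N (-0.54 ± 0.11, adjusted p = 0.0411).

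Amino acid breakdown and the urea cycle remove nitrogen from dietary and body protein. Of 29 tested genes, 6 were called higher and 0 lower, 28 had a positive fold change, and the median was 0.44. DESeq2 called 18 higher. The count by edgeR was 0 without the BFMI male, with 7 at an unadjusted p under 0.05 and a list median of 0.33. Cps1, the first enzyme of the urea cycle, had 5512, 6281 and 7254 CPM in F1, against 2505 and 5363 CPM in BFMI and 4893 and 6088 CPM in B6N (0.81 ± 0.14, adjusted p = 0.0212). The BFMI male stood far under all other animals. Cth, cystathionine gamma-lyase, had 169.6, 190.1 and 228 CPM in F1, against 59.5 and 94.9 CPM in BFMI and 172 and 237 CPM in B6N (0.93 ± 0.14, adjusted p = 0.0134), a level like that of B6N. Prodh, proline dehydrogenase, had 119 to 172 CPM in F1, against 54.4 and 104 CPM in BFMI and 94.2 and 128 CPM in B6N (0.93 ± 0.14, adjusted p = 0.0148).

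The circadian clock of the liver runs on a loop in which BMAL1 and CLOCK bind E-boxes and raise the Per and Cry genes, which repress them in turn. PAR bZIP factors such as TEF bind D-boxes as an output. Of 24 tested clock genes, 4 were called higher, 0 lower, and 19 lay above the mid-parent, with a median of 0.27. With matBFMI alone as F1 5 were called higher (median 0.33), and with patBFMI alone 0 (median 0.29). The difference between the crosses was not tested for the list. The labels give no time of day of dissection, so its part was not tested. DESeq2 called 9 higher and 1 lower, and edgeR 0 without the BFMI male, with 7 at an unadjusted p under 0.05 and a list median of 0.35.

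Per3 had 31.46, 23.97 and 38.7 CPM in matBFMI and 14.3, 9.13 and 15.6 CPM in patBFMI, against 3.48 and 8.41 CPM in BFMI and 10.6 and 15.03 CPM in B6N (1.72 ± 0.26, adjusted p = 0.0134). The matBFMI livers lay above every inbred liver, and the patBFMI livers overlapped B6N. The difference between the crosses had an adjusted p of 0.131. Per2 had 13.9, 20.4 and 30.4 CPM in F1, against 10.6 and 7.14 CPM in BFMI and 11.04 and 9.76 CPM in B6N (0.89 ± 0.14, adjusted p = 0.0144), without overlap. For Per2, matBFMI minus patBFMI was 0.80 on the log2 scale (edgeR, adjusted p = 0.096). Nr1d2, the repressor REV-ERB beta, had 109, 123 and 132 CPM in F1, against 59.8 and 84.7 CPM in BFMI and 99.3 and 105 CPM in B6N (0.66 ± 0.11, adjusted p = 0.0212), again without overlap. Tef had 90.0, 123 and 174 CPM in F1, against 41.1 and 68.8 CPM in BFMI and 97.4 and 93.7 CPM in B6N (1.00 ± 0.18, adjusted p = 0.024), with 1 F1 liver under both B6N animals.

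The promoters of Per3 and of a Tef transcript are printed because they hold letters of the clock motifs, the D-box TTATGTAA for Per3 and the E-box CACGTG for Tef, which alone are in capitals. Both strands were searched, and the motifs did not overlap.
Per3, chr4:151044616-151044915, minus strand: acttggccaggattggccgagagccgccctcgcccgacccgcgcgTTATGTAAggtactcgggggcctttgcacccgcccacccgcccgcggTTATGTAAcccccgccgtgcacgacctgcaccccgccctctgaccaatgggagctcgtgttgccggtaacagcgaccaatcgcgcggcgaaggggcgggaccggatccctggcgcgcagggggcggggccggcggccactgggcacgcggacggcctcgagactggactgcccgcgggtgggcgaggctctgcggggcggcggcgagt
Tef, chr15:81811164-81811463, plus strand: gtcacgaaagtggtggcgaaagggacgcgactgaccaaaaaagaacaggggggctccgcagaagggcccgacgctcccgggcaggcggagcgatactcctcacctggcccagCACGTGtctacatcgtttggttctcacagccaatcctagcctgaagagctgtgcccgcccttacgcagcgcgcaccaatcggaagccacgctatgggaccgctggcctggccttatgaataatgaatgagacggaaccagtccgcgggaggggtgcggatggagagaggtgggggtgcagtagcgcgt

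The D-box stood 2 times in the Per3 promoter, against 0.938% of all promoters with at least 1 copy. An E-box stood in 5 of the 19 clock genes with a promoter in the table (26.3%), against 8.09% of all genes, and the share was 4 of 15 (26.7%) in the cholesterol list and 3 of 20 in the fatty acid list. The promoter of Per2 was not matched.

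**Figure D4:**
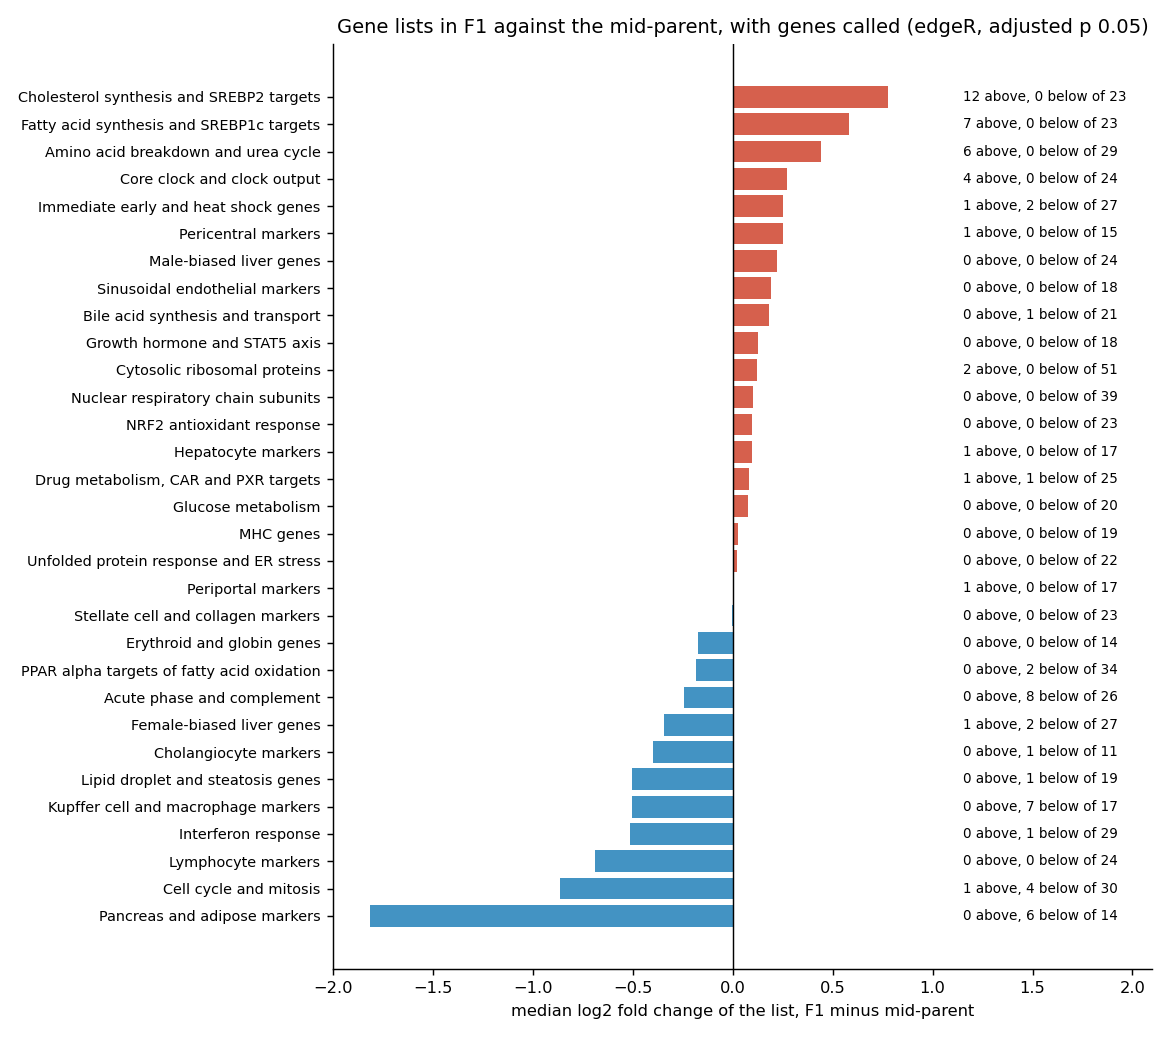
Bars give the median log2 fold change of F1 minus mid-parent over the tested genes of each list, with the number of genes called above and below at the right. Cholesterol synthesis lies highest at 0.78 with 12 of 23 genes called above, and the pancreas and adipose list lowest at -1.82 with 6 of 14 called below. Part of that last list passed the count filter only through the B6N livers.

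Kupffer cells are the resident macrophages of the liver. Of 17 tested Kupffer cell and macrophage markers, 7 were called lower in F1, 0 higher, and 16 had a negative fold change, with a median of -0.50. The markers summed to 283 to 373 CPM in F1, against 366 and 426 CPM in BFMI and 577 and 583 CPM in B6N. Within F1 the sums were 325, 283 and 297 CPM in matBFMI and 356, 360.4 and 373 CPM in patBFMI. Thus B6N was far above the F1 range, and the BFMI male lay among the patBFMI livers and above the matBFMI livers. With matBFMI alone as F1 8 genes were called lower, and with patBFMI alone 2. Without the BFMI male 1 was called in the fit with the sex term, at a list median of -0.53, and 9 in the fit without it.

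Lyz2, lysozyme of macrophages, had 24.9, 32.4 and 35.0 CPM in F1, against 45.4 and 32.1 CPM in BFMI and 83.5 and 60.7 CPM in B6N (-0.98 ± 0.10, adjusted p = 0.00241). Csf1r, the receptor for the macrophage growth factor CSF1, had 29.2, 32.8 and 35.9 CPM in F1, against 39.9 and 41.1 CPM in BFMI and 48.9 and 50.6 CPM in B6N (-0.45 ± 0.08, adjusted p = 0.0218). Csf1r did not overlap between F1 and inbred livers, whereas Lyz2 of the BFMI female lay within the F1 range. Marco, a scavenger receptor, had 0.529, 1.01 and 1.60 CPM in F1, against 4.24 and 7.36 CPM in BFMI and 22.4 and 6.14 CPM in B6N (-3.39 ± 0.42, adjusted p = 0.00688). Cd14, the lipopolysaccharide co-receptor, had 1.30 to 1.95 CPM in F1, against 6.12 and 2.85 CPM in BFMI and 2.38 and 2.77 CPM in B6N (-1.29 ± 0.21, adjusted p = 0.0175). Neither overlapped.

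Markers of other cell types had few or no calls. Of 23 stellate cell and collagen markers and 18 markers of sinusoidal endothelium, 0 were called by edgeR in either direction, with 1 and 10 at an unadjusted p under 0.05 and 0 and 2 called by DESeq2, and the medians were -0.0046 and 0.19. Of 24 lymphocyte markers 0 were called by edgeR and 1 by DESeq2, 8 had an unadjusted p under 0.05 and the median was -0.69. Of these, 21 averaged under 1 CPM, where the median of all genes was -0.29 or less. Themis, a T cell signalling protein that is not on that list, was lower in F1, with 0.202, 0.296 and 0.511 CPM, against 4.35 and 0.738 CPM in BFMI and 0.684 and 0.773 CPM in B6N (-2.59 ± 0.42, adjusted p = 0.0171), and the BFMI male stood apart. Among 11 cholangiocyte markers Spp1, osteopontin, was called lower, with 17.4 to 22.02 CPM in F1, against 49.96 and 24.7 CPM in BFMI and 24.3 and 26.6 CPM in B6N (-0.83 ± 0.17, adjusted p = 0.0388).

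The acute phase response is the release of plasma proteins by hepatocytes in inflammation. Of 26 tested acute phase and complement genes, 8 were called lower in F1, 0 higher, and the median was -0.24. Saa2, serum amyloid A2, had 3.33, 4.09 and 6.34 CPM in F1, against 52.4 and 14.9 CPM in BFMI and 15.03 and 9.56 CPM in B6N (-2.70 ± 0.25, adjusted p = 0.00187). Lcn2, the siderophore-binding lipocalin 2, had 0.591, 0.802 and 1.43 CPM in F1, against 34.3 and 10.4 CPM in BFMI and 1.53 and 4.01 CPM in B6N (-3.30 ± 0.46, adjusted p = 0.0121). Both genes were lower in every F1 liver than in any inbred liver and highest in the BFMI male. Saa1 and Saa3 were lower by -2.02 and -1.22 (adjusted p = 0.0132 and 0.0148), but the B6N female lay within the F1 range of Saa1 and the B6N male within that of Saa3. Saa1 and Saa2 are near-identical copies that may share reads. DESeq2 called 11 lower and 1 higher, and edgeR 0 without the BFMI male, with 14 at an unadjusted p under 0.05 and a list median of -0.38, and without the B6N male 4 were called.

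Interferon response genes had 1 call by edgeR among 29, against 6 lower by DESeq2 and 18 lower at an unadjusted p under 0.05. The gene called was Ifi44, with 1.30, 2.51 and 3.08 CPM in F1, against 5.30 and 5.92 CPM in BFMI and 3.75 and 6.49 CPM in B6N (-0.98 ± 0.20, adjusted p = 0.0383). A negative fold change was found for 28 of the 29, with a median of -0.52, and in 11 all F1 libraries were below all inbred libraries. Oasl2 was among these, with 0.886 to 2.56 CPM in F1, against 3.13 and 2.93 CPM in BFMI and 3.66 and 4.19 CPM in B6N, and it missed the threshold (adjusted p = 0.0604). Ifi27l2b, an interferon-inducible gene of the Ifi27 family that is not on the list, was below both strains, with 0.728, 1.47 and 2.099 CPM in F1, against 8.34 and 4.91 CPM in BFMI and 4.36 and 9.46 CPM in B6N (-2.21 ± 0.37, adjusted p = 0.0201).

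Of 30 genes of cell cycle and mitosis, 4 were called lower, 1 higher, and 26 had a negative fold change with a median of -0.87. These are low genes in adult liver: 11 averaged under 1 CPM. Ccnb2, a mitotic cyclin, had 0.253, 0.269 and 0.318 CPM in F1, against 1.23 and 0.602 CPM in BFMI and 0.924 and 0.549 CPM in B6N (-1.94 ± 0.25, adjusted p = 0.00791). Cenpf, a kinetochore protein, had 0.522, 0.604 and 0.972 CPM in F1, against 2.55 and 1.13 CPM in BFMI and 1.59 and 1.89 CPM in B6N (-1.69 ± 0.27, adjusted p = 0.0176). Cdc20, which activates the anaphase-promoting complex, and Cenpe, a kinetochore motor, were lower by -1.93 and -1.68 (adjusted p = 0.0171 and 0.024), and Hmmr, a spindle-associated protein that is not on the list, by -2.08 (adjusted p = 0.024). All 5 genes were lower in every F1 liver than in any inbred liver. Tk1, thymidine kinase of S phase, was the gene called higher, with 16.4, 22.6 and 27.2 CPM in F1, against 14.6 and 26.9 CPM in BFMI and 7.38 and 12.4 CPM in B6N (1.09 ± 0.17, adjusted p = 0.0144). DESeq2 called 8 lower, and edgeR 0 without the BFMI male, with 5 at an unadjusted p under 0.05 and a list median of -0.39.

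**Figure D5:**
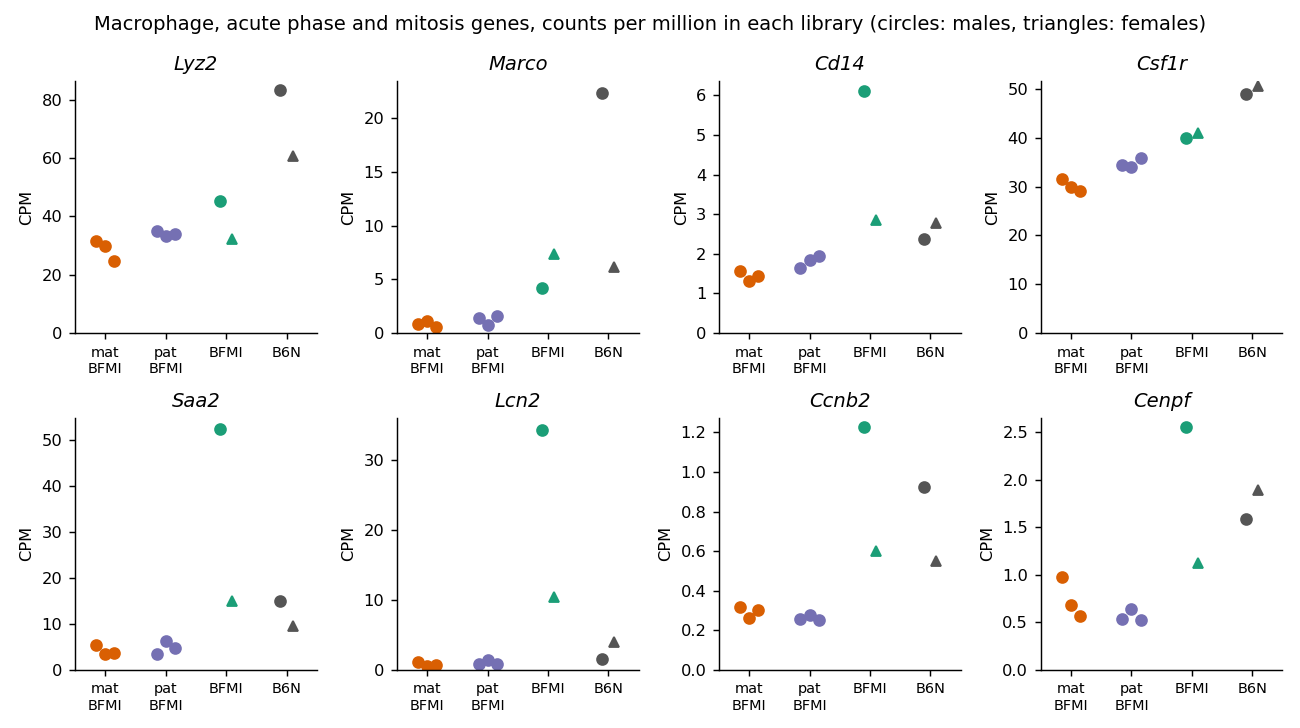
CPM of 4 macrophage genes, 2 acute phase genes and 2 mitosis genes in each library, by group, with males as circles and females as triangles. Apart from Lyz2 of the BFMI female at 32.1 CPM, every inbred liver lies above every F1 liver, and the BFMI male stands far above the others in Saa2 and Lcn2.

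Digestive enzymes of the exocrine pancreas were among the largest negative departures: Cel, Ctrb1, Amy2a4, Pnliprp1 and Amy2a1 by the rule, and 6 of 14 genes in the list of pancreas and adipose markers. They were present in B6N livers and near 0 elsewhere, and those named by the rule were classed as shifted to BFMI. Amy2a4, a pancreatic amylase, had 0.0174 to 0.0567 CPM in F1, against 0.109 and 0.0776 CPM in BFMI, 5.20 CPM in the B6N male and 32.6 CPM in the B6N female. Cel, a bile salt-activated lipase, had 0 to 0.0590 CPM in F1, against 0.0791 and 0.0776 CPM in BFMI, 3.12 CPM in the B6N male and 15.4 CPM in the B6N female. Cpb1 and Pnlip followed the same order, with 16.2 and 23.9 CPM in the B6N female. The whole list summed to 18.2 to 30.2 CPM in F1, against 18.1 and 30.0 CPM in BFMI and 34.4 and 137 CPM in B6N. Without the B6N female 1 of the 6 list genes still tested was called lower, and without the BFMI male or the B6N male 0 were called by edgeR, with 6 and 2 at an unadjusted p under 0.05. The amylase genes are near-identical copies. The part of tissue taken with the B6N livers in these values was not tested.

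Sex-biased genes bear on a mid-parent built from a single male of each strain. Of 24 male-biased genes 0 were called by edgeR or DESeq2, with 3 at an unadjusted p under 0.05, and of 27 female-biased genes 1 was called higher and 2 lower. Cyp17a1, a steroid hydroxylase, had 10.8, 19.4 and 23.1 CPM in F1, against 0.692 and 5.12 CPM in BFMI and 26.7 and 128 CPM in B6N (1.99 ± 0.22, adjusted p = 0.00448). This departure turned round without the sex term when an inbred male was left out. Abcd2, a peroxisomal transporter of fatty acids, had 30.3, 22.9 and 27.0 CPM in matBFMI and 12.8, 10.7 and 13.0 CPM in patBFMI, against 24.99 and 93.9 CPM in BFMI and 30.4 and 94.2 CPM in B6N. The 3 patBFMI livers lay below every inbred liver, while the matBFMI livers reached the level of the inbred males. The departure was -0.61 ± 0.12 (adjusted p = 0.0324), and the crosses differed by 1.13 (adjusted p = 0.013). Cyp3a16 was lower, with 0.689 to 2.99 CPM in F1, against 5.85 and 13.2 CPM in BFMI and 2.63 and 5.41 CPM in B6N (-1.64 ± 0.32, adjusted p = 0.0301). The female-biased list summed to 261 to 772 CPM in F1, to 912 and 469 CPM in the BFMI and the B6N male, and to 3603 and 2775 CPM in the females.

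Of the remaining lists, Cyp1a2, a xenobiotic and caffeine hydroxylase around the central vein, was higher in F1 with 199, 298 and 380.3 CPM, against 161 and 169 CPM in BFMI and 185 and 232 CPM in B6N (0.74 ± 0.13, adjusted p = 0.0213). The B6N female lay within the F1 range, and matBFMI minus patBFMI was -0.65 on the log2 scale (edgeR, adjusted p = 0.144). Cdkn1a, the cell cycle inhibitor p21, was lower with 0.303, 0.521 and 0.683 CPM in F1, against 7.61 and 2.41 CPM in BFMI and 0.518 and 1.20 CPM in B6N, so that F1 overlapped the B6N male (-2.25 ± 0.44, adjusted p = 0.0302). Dusp1, a phosphatase of the immediate early response, was lower by -1.05 ± 0.22 (adjusted p = 0.0437). Cytosolic ribosomal proteins had 2 calls among 51, Rpl34 and Rps18, with a median of 0.12. No gene was called by edgeR in the lists for glucose metabolism, antioxidant response under NRF2, the unfolded protein response, MHC, the nuclear respiratory chain and the growth hormone axis, where 6, 7, 3, 2, 0 and 5 genes had an unadjusted p under 0.05 and DESeq2 called 2, 5, 0, 0, 0 and 3.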

How the data were processed

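Liver RNA-seq was used as the authors deposited it, as raw read counts per Ensembl gene (GRCm38). The deposited RPKM values, normalised by the authors across samples, served only as an alternative. According to the submitters' notes, reads were processed with Trimmomatic 0.32, TopHat2 2.10, Bowtie2 2.2.6 and Picard 1.99. The labels name polyA RNA beside a ribosomal depletion protocol. The 3 columns per file whose animals lack a sample record were left out.

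Counts were fitted with edgeR 4.0.16 (quasi-likelihood test, TMM) in R 4.3.3 over all 10 libraries, with 4 group levels and sex, which left 5 residual degrees of freedom and a common coefficient of variation of 17.8%. Genes of all chromosomes that passed the count filter (19974) set the library sizes and scaling factors. The dispersion, the fit and the Benjamini-Hochberg adjustment used the autosomal ones alone. Contrasts were the mean of matBFMI and patBFMI minus the mean of BFMI and B6N, BFMI minus B6N, and F1 minus each strain. Errors are standard errors of the fit. The labels call the animals separate samples. The spread behind the p-values came mostly from F1 males of the same cross. No inbred animals shared both strain and sex, so the spread between inbred males of a strain was not measured.

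Positions and symbols came from GENCODE M21, which matched 40254 genes. The members and gene lists were chosen with earlier results of these data known. Named were protein-coding genes: the 10 largest called departures per direction with separate libraries and a group mean of at least 1 CPM, the 5 farthest outside both strains, the 6 of each shifted class with the smallest strain p, 4 per direction between the strains, and 2 to 4 of each list with the smallest p. Some genes that this rule selects are not reported here. Lss, Hmgcs1 and Cenpe were added after seeing their values. The edgeR test of F1 minus mid-parent was run on simulated counts with known departures, and the other steps were not. Alternatives were other scalings and filters, DESeq2 1.42.0, limma 3.58.1 with voom or RPKM (pseudocounts 1 and 0.1), other F1 groups, no sex term, males only, a block for offspring number, and leaving out each library. Leaving out inbred libraries without the sex term was added after seeing the data.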

Additional observations from a re-analysis of the deposited data

Results flagged for a closer look

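Over the 6 F1 libraries of 82 genes examined singly, 6 genes had a library far from the others by Dixon's criterion, and chance flags about 1 in 20 groups. Prodh was highest in matBFMI 3 with 172 CPM, Cenpf in matBFMI 1 with 0.972 CPM and Cyp3a16 in matBFMI 1 with 2.99 CPM. In patBFMI 1, the F1 library with the most genes counted, Cel had 0.0590 CPM, Cpb1 0.118 CPM and Pnlip 0.118 CPM, each the highest of the F1 libraries.

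Abcd2 departed from the mid-parent to a different extent in the crosses, with matBFMI above patBFMI by 1.13 on the log2 scale (edgeR, adjusted p = 0.013). It was the only one of the 405 genes called against the mid-parent that also differed between the crosses at an adjusted p of 0.05. The comparison of matBFMI with patBFMI called 9 genes in all, and each cross was run on its own lane, so cross and lane cannot be told apart.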

How the results depend on the processing

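The limits lie in the inbred side: 1 male and 1 female per strain, a mid-parent at the level of single males, another lane and possibly another diet than F1. With the sex term, leaving out each library gave 6 to 329 genes above and 7 to 567 below mid-parent, 543 to 1495 between BFMI and B6N, 2 to 75 above and 5 to 179 below both strains, 1 to 91 shifted to BFMI, 5 to 96 shifted to B6N and 493 to 1341 with no shift called. The lowest counts above and below the mid-parent came without the BFMI male, and the highest without patBFMI 1, the F1 library with the most genes counted. Without the sex term, leaving out each inbred library gave 81 to 624, 108 to 626, 548 to 961, 5 to 70, 15 to 111, 28 to 178, 17 to 116 and 502 to 761 in the same order.

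Further changes by more than 1.5 times were as follows; the cause was not tested. No sex term gave 477 above and 455 below mid-parent, 75 below both and 126 shifted to BFMI. Males only gave 795 between the strains, 22 above and 27 below both and 637 with no shift called, from fewer libraries. As 1 group, the F1 males gave 112 below mid-parent, 31 above and 29 below both and 38 shifted to B6N. Library size scaling gave 148 above mid-parent and 31 above both. DESeq2 gave 543 above and 297 below mid-parent, 141 above both, and 120 and 146 shifted to BFMI and B6N. Voom gave 376, 283, 100 above and 86 below both, and 105 shifted to B6N. With no filter there were 561 above and 712 below mid-parent, 144 above and 201 below both, and 169 and 201 shifted to BFMI and B6N. RPKM with a pseudocount of 1 gave 54 above mid-parent, 369 between strains, 13 above both, 13 and 14 shifted to BFMI and B6N and 342 with no shift called. With 0.1 it gave 27, 30, 328, 10 above and 8 below both, 10, 6 and 312. As F1 alone, patBFMI gave 67 above and 41 below mid-parent, 19 above and 18 below both, and 23 and 30 shifted to BFMI and B6N, against 270 above and 148 below with matBFMI alone.

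Same-numbered offspring of the crosses deviated together with correlations of 0.469, 0.078 and 0.221, so the numbers were not taken to pair the animals, and not every animal correlated best with its own number. A replicate block by offspring number gave 375 above and 489 below mid-parent, 93 above and 168 below both strains and 111 shifted to BFMI.

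In RPKM the log2 departures of Epop (-0.15 and -0.33), Colgalt2 (-0.10 and -0.31), Exoc3l2 (-0.11 and -0.16), Iqcg (-0.14 and -0.033), Hddc3 (-0.24 and -0.19), Rpl34 (-0.10 and -0.064) and Camk2b (-0.14 and -0.13) lay below 0 at pseudocounts of 1 and 0.1, but above the medians of all genes on those scales (-0.27 and -0.66). Cyp17a1 ranged between -0.16 and 2.36 when a library was left out, and lay below 0 only without the sex term and the BFMI male (-0.16) or the B6N male (-0.065). Of 82 genes examined singly, 69 lost their call without the BFMI male, and 38 of the 76 tested without the B6N male. With the sex term kept, none of them turned round when an inbred male was left out.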
